A study of Mus musculus with 20 samples.

Results

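The net change of H3K27ac from neuronal progenitors to day 10 neurons was described over all 140641 regions of the H3K27ac table of the stages, with none left out, of 203518 regions in the H3K27ac and FAIRE tables of the stages. The change of a region is its log2 enrichment in day 10 neurons minus that in progenitors, so a positive value means more of the mark in day 10 neurons. Day 10 neurons and progenitors had 2 libraries each, as had day 1 neurons, the stage between them in time. The cultures were mouse cells of strain label 159.2, and the stage libraries carry no treatment label. The deposited values merge the 2 libraries of a stage, so they hold no spread between replicates, no test was run, and regions are called gains and losses below by size alone. The other 62877 regions are those of FAIRE, set beside H3K27ac at the end.

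H3K27ac is acetylation of lysine 27 of histone H3, set by the acetyltransferases CBP and p300 and removed by histone deacetylases. It marks active promoters and active enhancers, the distal elements that raise transcription of genes in cis, and sets them apart from poised elements. Broad and strong domains of the mark are often found at genes that define a cell's identity. As progenitors leave the cell cycle and become neurons, many enhancers lose the mark and others gain it. The regions here are numbered and have a width, but the table gives them no position and no gene, so no promoter, enhancer or gene can be named.

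The day 10 label could be checked only in RNA of other cultures, day 10 neurons given DMSO for 6 h. All 9 pan-neuronal markers measured there had at least 10 normalised read counts in both libraries (summed 118011 and 128007), with Tubb3, a neuronal tubulin, at 25720 and 28109. All 7 glutamatergic markers (summed 15188 and 14648) and 3 of 5 GABAergic markers (8721 and 7259) passed the same level. Slc17a7 (13.5 and 18.0), Neurod6 (12.6 and 13.2) and Tbr1 (18.0 and 34.7), all glutamatergic, were not far above it. The GABAergic markers Dlx1 and Dlx2 were below it. Slc17a6, a vesicular glutamate transporter, stood at 3965 and 3969, and Gad1, a GABA synthesis enzyme, at 5422 and 4354. Markers of other cell types were detected too. All 6 fibroblast and mesenchyme markers passed that level, with Col3a1, a fibrillar collagen, at 49931 and 44801 and a summed level of 108077 and 98771. All 8 progenitor markers did as well, their sum being 12868 and 15387. Most of that sum was Vim (6444 and 7732) and Fabp7 (4379 and 5468), while Hes5 (44.0 and 40.7) and Sox1 (34.1 and 49.1) were far lower. The level was also passed by 4 of 5 astrocyte markers (5516 and 6707) and 4 of 5 oligodendrocyte lineage markers (1210 and 1157). All 4 pluripotency markers and all 4 microglia markers were below 10, with Pou5f1, Zfp42 and Ptprc at 0 in both libraries. The part of these cells in the H3K27ac values was not tested. In such mixed cultures, fewer cells that carry the mark at a region and less mark per cell cannot be told apart.

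The deposited log2 enrichment was lower in day 10 neurons at more regions than it was higher. The median change was -0.12, with quartiles of -0.66 and 0.42, and 42.7% of regions lay above 0. A change of at least 2-fold higher was seen in 13898 regions, 9.88% of all, and of at least 2-fold lower in 21304 regions, 15.1% of all. The changes reached 4-fold higher in 1999 regions and 4-fold lower in 4021. Most regions, 105439 of them, stayed within 2-fold. The tail of losses was the longer one, ending at -6.15, against 4.62 for the tail of gains.

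With each column centred on its median the change moved little, since the column medians were close, 0.63 in day 10 neurons and 0.66 in progenitors. The centred median was -0.089, with 14423 regions (10.3%) at least 2-fold higher and 19994 (14.2%) at least 2-fold lower. The excess of losses over gains did not hold under every scaling. Centred on the median of the top level quintile, 24119 regions were higher and 12479 lower, so that 65.9% of the changes past 2-fold were gains, against 39.5% as deposited. Scaled by the total of reads in regions, 40787 were higher and 6977 lower, 85.4% of them gains. After quantile normalisation of the columns 15952 were higher and 15243 lower, 51.1% of them gains. Centring on the top quintile moved the median of all regions by 0.33 on the log2 scale and scaling by total reads by 0.68. The directions below are those of the deposited scale unless another is named.

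**Figure D1:**
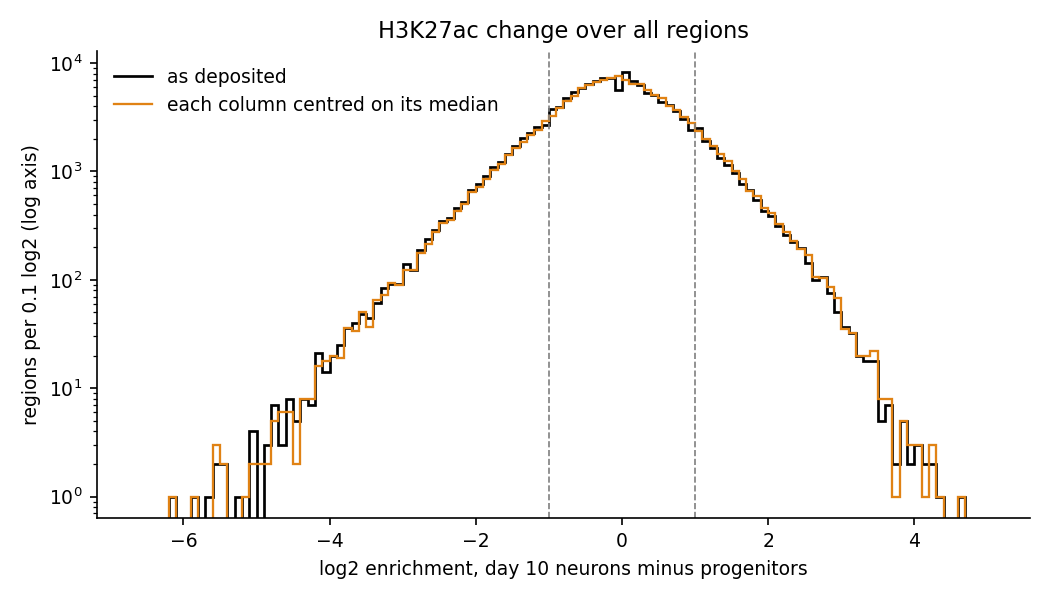
The number of regions per 0.1 log2 step of change (log axis) is plotted against the log2 enrichment of day 10 neurons minus progenitors, as deposited (black) and with each column centred on its median (orange). The dashed lines mark 2-fold, and the left tail reaches -6.15 where the right one ends at 4.62 as deposited.

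The middle of the distribution was alike at both ends, while its upper end was not. The 50th percentile was 0.63 in day 10 neurons and 0.66 in progenitors, and the 75th was 1.31 and 1.32. Above that the stages parted. The 95th percentile was 3.18 in day 10 neurons against 3.91 in progenitors, the 99th was 4.29 against 5.62, and the 99.9th was 5.19 against 6.83. Values above 6 occurred at 799 regions in progenitors, 328 in day 1 neurons and 4 in day 10 neurons. Low values were somewhat more frequent in day 10 neurons, where 14.3% of regions lay below 0, against 10.6% in progenitors.

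**Figure D2:**
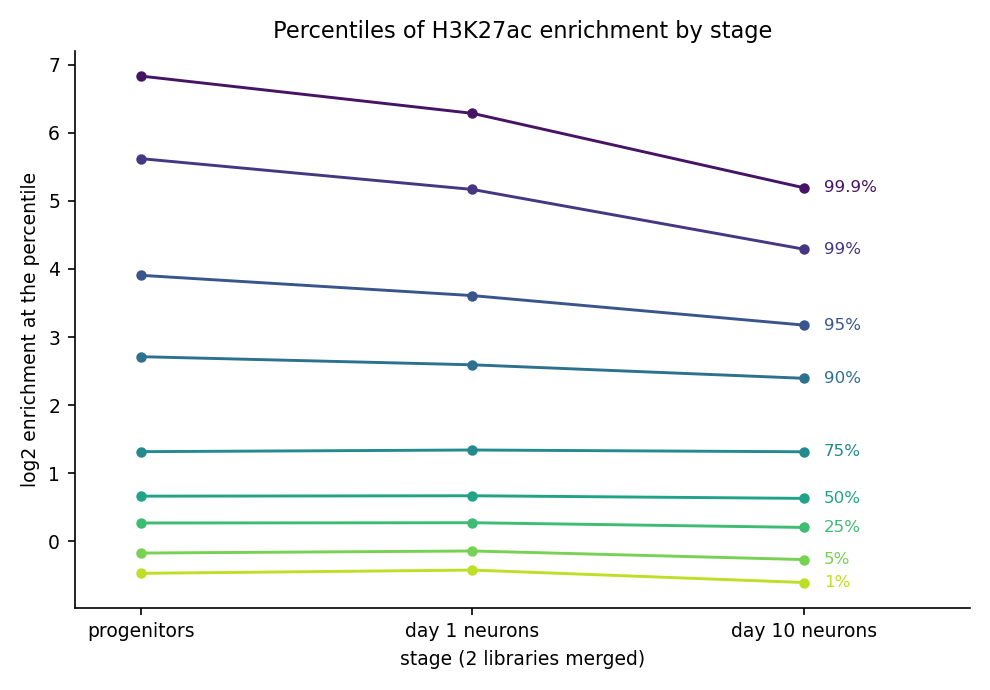
Percentiles of log2 enrichment over the 140641 regions (1 line each) are plotted for the stages in their order, each a merge of 2 libraries. The lines from the 75th percentile down run nearly flat, and the 99.9th percentile stands at 6.83, 6.29 and 5.19.

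Whole reads could be recovered from the values of 140630 regions, because each value is the log2 of the reads plus 16 over a scaled reference plus 16. The median region held 23 reads in day 10 neurons and 24 in progenitors. The summed reads, in M (mega) reads, were 18.0 M in progenitors, 15.3 M in day 1 neurons and 11.2 M in day 10 neurons. Regions with fewer reads in day 10 neurons lost 9.20 M reads in sum, and those with more gained 2.44 M. The reads were also spread over more regions in day 10 neurons. There 8977 regions held 50% of all reads, against 4986 in progenitors, and the richest 1% of regions held 15.8% of reads against 24.1%. No source at hand says whether the merged libraries were brought to one depth. In these sums depth, how well each library was enriched and the amount of the mark cannot be told apart.

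By level, the change was near 0 in the middle and negative at the top. Level is the mean of both ends, and a quintile holds 20% of the regions. The median change was -0.13 in the lowest quintile, -0.078 in the second, 0.0 in the third and 0.037 in the fourth. In the top quintile it was -0.56, with quartiles of -1.35 and 0.31. There 35.9% of regions were at least 2-fold lower and 12.4% at least 2-fold higher. Scaling by total reads adds the same amount to every region, so it cannot change the order of the classes. With it the top quintile stood at 0.12 and the others between 0.55 and 0.72. Gains were most frequent one step below, in the fourth quintile, where 18.0% were at least 2-fold higher and 16.9% at least 2-fold lower.

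Within the top quintile the change grew with the level. Between the 90th and 95th percentile of level the median change was -0.56, between the 95th and 99th -1.08, and in the highest 1% it was -1.53. These highest 1407 regions had a median enrichment of 4.53 in day 10 neurons and 6.05 in progenitors. Of them, 82.1% were at least 2-fold lower, 1.21% were above 0, and 0 were at least 2-fold higher. Their level starts at 4.84, where a 2-fold gain needs a day 10 value above 5.19, the 99.9th percentile of day 10 neurons. Few regions could therefore show such a gain, and the 0 mostly restates the lower upper end of the day 10 values. The top quintile held 8.11 M of the day 10 reads (72.3%) and 14.8 M of the progenitor reads (82.5%). The difference makes up 99.3% of the net loss of reads. The other quintiles had a log2 ratio of summed reads, day 10 over progenitors, between -0.31 in the lowest and 0.068 in the fourth. With level set by the day 10, day 1 or progenitor value, the top quintile made up 77.5%, 103% and 116% of the net loss. A share above the whole means that the other quintiles gained reads in sum.

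**Figure D3:**
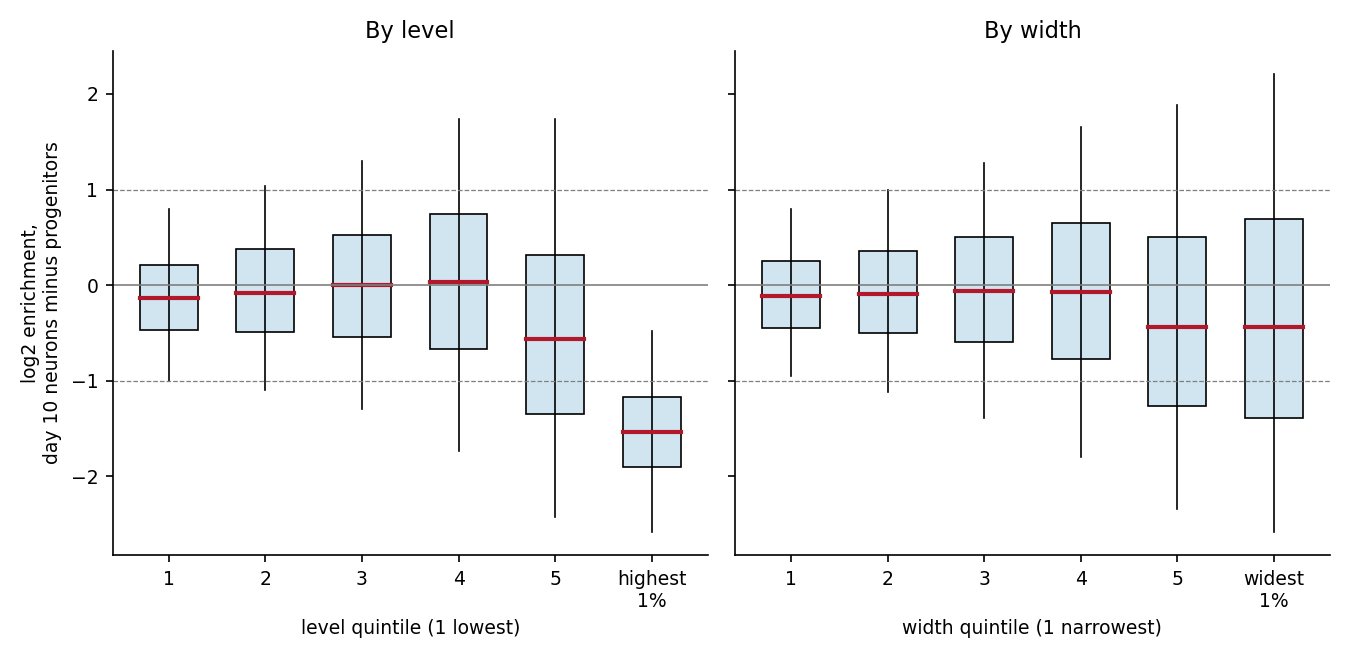
The log2 change of day 10 neurons against progenitors is drawn by level quintile with the highest 1% (left) and by width quintile with the widest 1% (right). Red lines are medians, boxes the quartiles and whiskers the 5th to 95th percentile, and the box of the highest 1% lies wholly below -1 (quartiles -1.90 and -1.17) while that of the widest 1% spans 0.

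How level was defined changed the medians of the quintiles, the top one included. Where the progenitor value set the quintiles, the median change ran from 0.47 in the lowest to -1.02 in the top. Where the day 10 value set them, it ran the other way, from -0.58 in the lowest to 0.44 in the fourth and 0.15 in the top, where 29.0% were at least 2-fold higher and 22.6% at least 2-fold lower. Each of these values is itself 1 side of the difference, so its slope is partly fixed by the choice. The day 1 value enters neither end of the difference. By it, the median was 0.21 in the lowest quintile, -0.044, -0.13 and -0.20 in the next ones and -0.65 in the top. It is not neutral, since its top quintile had medians of 2.59 at day 1, 2.61 in progenitors and 2.17 in day 10 neurons. Nor is the mean of both ends. Progenitor values spread more than day 10 values (SD 1.25 against 1.05), which by itself ties a higher mean to a lower change. The highest 1% had a negative median change under all 4 definitions. The median change of the highest 1% was -1.53 by the mean of both ends, -1.54 by day 1, -1.79 by the progenitor value and -1.04 by the day 10 value itself. Even among those picked for the highest day 10 value, 52.2% were at least 2-fold lower and 7.04% at least 2-fold higher.

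By width, the widest regions had the most negative change. Regions were 151 to 3320 bp wide, with a median of 304 bp, and 6180 regions had the smallest width of 151 bp. The median change was -0.11 in the narrowest quintile (151 to 185 bp), -0.090, -0.059 and -0.068 in the next ones, and -0.43 in the widest (624 to 3320 bp). In the widest quintile 32.7% of regions were at least 2-fold lower and 15.7% at least 2-fold higher, against 4.39% and 2.42% in the narrowest. The widest 1%, from 1665 bp on, had a median of -0.44, and 34.8% of them were at least 2-fold lower and 19.4% at least 2-fold higher. The widest quintile held 69.5% of the day 10 reads and 77.3% of the progenitor reads, and 90.1% of the net loss. With scaling by total reads its median was 0.25, against 0.57 to 0.62 in the other width quintiles, an order this scaling cannot change.

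The offset of 16 reads holds narrow regions near 0. A region with fewer than 16 reads in progenitors cannot reach a 2-fold loss on this scale, and 75.3% of the narrowest quintile were of that kind, against 0.295% of the widest. With an offset of 1 read, 29.0% of the narrowest quintile were at least 2-fold lower and 16.9% at least 2-fold higher, while in the widest quintile 35.4% were lower and 17.9% higher. The shares of the narrow and wide classes thus lay closer together with the smaller offset, and the median change of the widest quintile was -0.48 with it. These narrow regions rest on few reads, a median of 9 in day 10 neurons and 11 in progenitors.

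Width and level go together (Spearman's rho across the 140641 regions, 0.66, regions not being independent), so each was looked at with the other held. In the top level quintile every width class had a negative median change, from -0.52 for the narrowest (265 regions) through -0.37 in the middle to -0.66 for the widest (18858 regions). In the fourth level quintile the widest had a median of 0.12, with 25.3% at least 2-fold higher and 19.7% at least 2-fold lower, and the narrowest had -0.15. In the third level quintile the widest stood at 0.073. In the lowest level quintile the widest had -0.32 and the narrowest -0.12. In the top level quintile the widest minus the narrowest was -0.14. The 95% order-statistic bounds of both medians put it between -0.28 and 0.053, a range that spans 0 and takes regions as independent. With tertiles of width and level in place of quintiles it was -0.15, between -0.22 and -0.083, a range that does not span 0. Of the 28126 widest regions, 18858 were in the top level quintile.

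**Figure D4:**
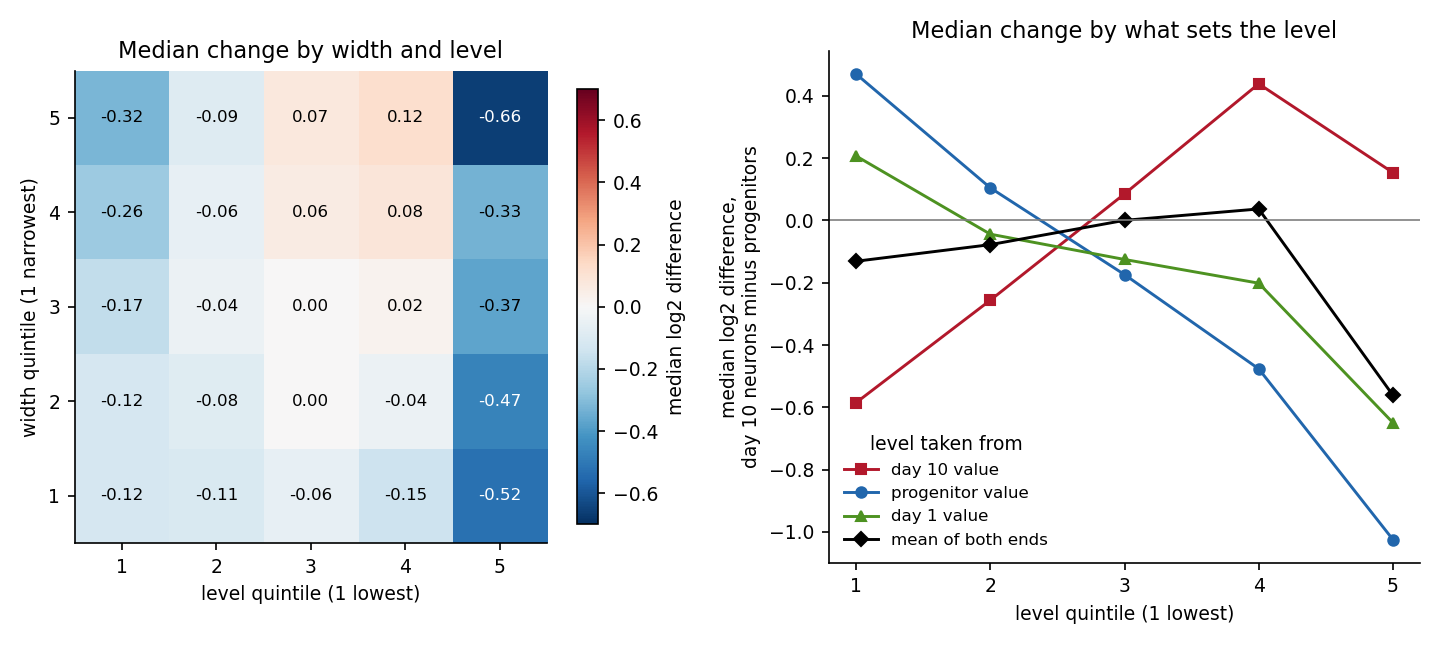
Left, the median log2 change of day 10 neurons against progenitors in each of the 25 classes of width and level quintile, printed in the cell. Right, the median change by level quintile, with the level taken from the day 10 value, the progenitor value, the day 1 value or the mean of both ends. The right column of the map is negative at every width (-0.37 in the middle, -0.66 for the widest), and the lines for the day 10 value and the progenitor value slope opposite ways.

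Regions that gained at least 2-fold had low values in progenitors, as the choice of large gains in part fixes. Their median enrichment was 1.70 in day 10 neurons and 0.22 in progenitors, and 31.4% of them lay below 0 in progenitors, that is under the reference, against 0 regions in day 10 neurons. They held a median of 85 reads in day 10 neurons against 20 in progenitors, and 18.2% of all day 10 reads against 2.87% of progenitor reads. Their median width was 461 bp, against 261 bp for regions within 2-fold. The offset holds many narrow regions of few reads within 2-fold, which fixes part of this contrast in width. The 1999 regions that gained at least 4-fold reached a median of 2.57 in day 10 neurons, against 0.18 in progenitors, and were 684 bp wide at the median.

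Regions that lost at least 2-fold were wider than the gained ones and had high values in progenitors, which the choice again fixes in part. Their median was 0.50 in day 10 neurons and 2.17 in progenitors, and 26.1% of them lay below 0 in day 10 neurons. They held 2.95 M reads in day 10 neurons and 10.3 M in progenitors, which was 26.3% and 57.5% of all reads in regions at each stage. Their median width was 545 bp and 47.4% were in the top level quintile, against 25.1% of the gained regions. Regions that lost at least 4-fold, 4021 of them, had a median of 0.65 in day 10 neurons and 3.32 in progenitors.

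The strongest 10% of regions at each end overlapped in 9688 regions, 68.9% of the 14065 on either side. Those shared regions had a median of 3.41 in day 10 neurons and 4.33 in progenitors, so they too were lower. The 4377 regions in the strongest 10% of day 10 neurons alone stood at 2.78 in day 10 neurons and 1.52 in progenitors. The 4377 in that of progenitors alone stood at 1.61 in day 10 neurons and 3.24 in progenitors. Across all regions the columns had a Pearson correlation of 0.69 and a Spearman correlation of 0.42. Both share the same reference, and regions are not independent, so these only describe the table.

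On the deposited scale, the losses had gone further than the gains at day 1. In regions that lost at least 2-fold, 42.0% of the log2 change was present by day 1 at the median, and the day 1 value lay between both ends in 80.4% of them. In regions that gained at least 2-fold the share was 17.7%, and the day 1 value lay between both ends in 61.9%. In 27.7% of the gained regions the day 1 value was below that of progenitors, before the higher day 10 value. The median enrichment of the gained regions was 0.22 in progenitors, 0.49 in day 1 neurons and 1.70 in day 10 neurons, and that of the lost regions was 2.17, 1.58 and 0.50. The difference between both sets was not tested, and these shares were not taken on the scalings that turn the median change positive.

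Most of the largest losses ended near or below the reference. Region 111238, 1038 bp wide, had an enrichment of 0.35 in day 10 neurons and 6.50 in progenitors, with 29 and 3187 reads. The log2 ratio of its reads, with no offset, was -6.78 (95% exact binomial interval -7.36 to -6.25, counting error only). Region 97487 (1375 bp) had -0.19 in day 10 neurons and 5.70 in progenitors, with 20 and 2115 reads. Region 95572 (743 bp) had 0.24 and 5.84, and its neighbour in number, region 95571 (871 bp), had -0.15 and 5.41. Region 76528 (974 bp) kept 1.34 in day 10 neurons, against 6.92 in progenitors. At day 1 these regions stood between 1.90 and 3.39, all between their values at both ends.

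The largest gains were smaller in size than the largest losses, and their day 10 values lay below the progenitor values of those losses. Region 117360 (1381 bp) had 3.72 in day 10 neurons and -0.89 in progenitors, with 793 and 17 reads, a log2 read ratio of 5.54 with no offset (95% exact binomial interval 4.86 to 6.33, counting error only). Region 50421 (834 bp) had 3.99 in day 10 neurons and -0.34 in progenitors, with 726 and 21 reads. Region 52346 (1410 bp) had 3.57 and -0.66, region 62529 (1503 bp) 3.73 and -0.48, and region 116994 (1147 bp) 3.49 and -0.69. All 5 were in the widest quintile, as were the 5 largest losses. The offset of 16 reads allows changes of this size only at regions with many reads, which fixes part of this. The widest quintile held a median of 166 reads in day 10 neurons and 184 in progenitors, against 9 and 11 in the narrowest. Among regions of the top level quintile, region 115841 (1978 bp) had 4.78 in day 10 neurons and 0.66 in progenitors, and region 14092 (1781 bp) had 4.68 and 0.66. These 2 already stood at 4.09 and 3.69 at day 1, unlike region 116994, which was at -0.084 then.

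The widest regions did not move one way. Region 70003, the widest at 3320 bp, had 4.24 in day 10 neurons and 5.66 in progenitors. Region 41962 (3229 bp) had 4.04 and 2.51, region 109707 (3187 bp) 3.90 and 3.01, region 131709 (3115 bp) 4.25 and 4.45, and region 37990 (3068 bp) 5.25 and 7.05. Region 96797 (1815 bp), the highest of all in progenitors, had 6.11 in day 10 neurons and 8.19 in progenitors. The highest in day 10 neurons was region 59549 (2082 bp), with 6.24 against 7.25 in progenitors. Regions nearest the 2-fold threshold differed widely in reads. Region 704, at exactly 2-fold higher, had 22 reads in day 10 neurons and 3 in progenitors, and region 22374, just short of it at 0.997, had 413 and 199. Region 169, at exactly 2-fold lower, had 3 reads in day 10 neurons and 22 in progenitors, and region 8795, just short of it at -0.999, had 768 and 1551.

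Regions close in number were past 2-fold in the same direction more often than all regions. What the numbering follows is stated nowhere in the labels or the table. On the centred scale, 41.2% of the regions that followed a region at least 2-fold lower were at least 2-fold lower themselves, against 14.2% of all regions. The same held for 37.8% of those that followed a region at least 2-fold higher, against 10.3% of all. The Pearson correlation of the change was 0.51 between neighbours in number, 0.15 at a distance of 10 and 0.012 at a distance of 100 (140640, 140631 and 140541 pairs, which are not independent).

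Some of these stretches were long, and on the centred scale the longest were losses. There were 492 runs of at least 5 consecutive regions that were all at least 2-fold lower on that scale. They held 3385 regions, 16.9% of the losses. Such runs of gains numbered 227 and held 1367 regions, 9.48% of the gains. Losses outnumber gains on this scale (14.2% against 10.3% of all regions), which alone favours runs of losses. Runs were not counted on the scalings where gains outnumber losses. The longest run of losses, 31 regions from 104555 to 104585, held 24067 reads in progenitors, 13872 in day 1 neurons and 4340 in day 10 neurons. The next, 24 regions from 37288 to 37311, held 555 reads in day 10 neurons and 6934 in progenitors. The longest run of gains, 16 regions from 86336 to 86351, held 1350 reads in progenitors, 2386 in day 1 neurons and 6383 in day 10 neurons. A run of 13 from 129426 to 129438 held 2678 reads in day 10 neurons and 321 in progenitors. Whether the regions of a run adjoin each other is not stated, so runs are not counts of separate elements.

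**Figure D5:**
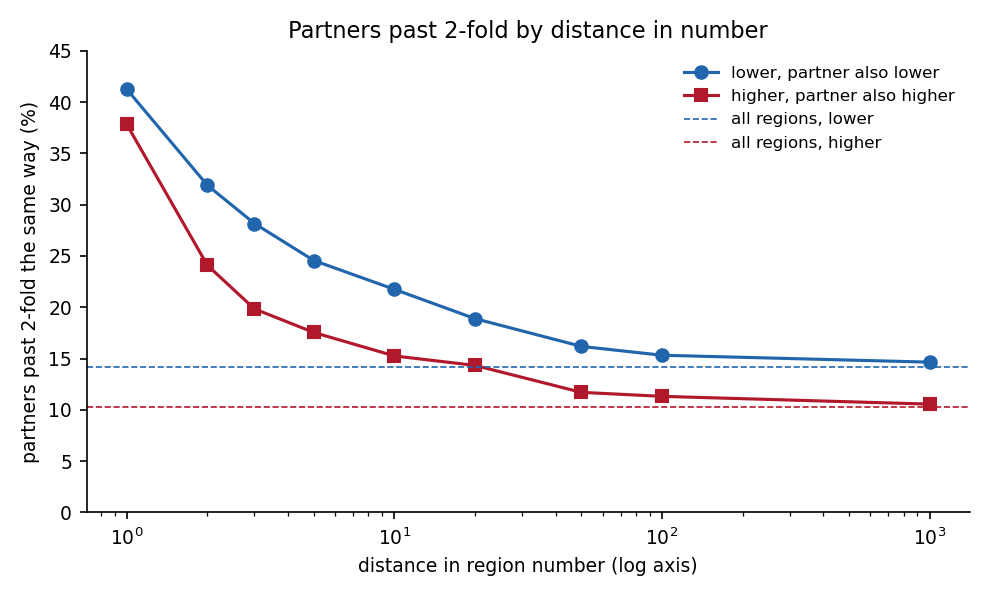
For pairs of regions at a given distance in number (log axis), the percent of partners that were also at least 2-fold lower (blue) or higher (red) on the centred scale. The dashed lines are the share over all regions (14.2% lower, 10.3% higher), which both curves approach by a distance of 1000.

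FAIRE, an assay that enriches DNA depleted of nucleosomes, gave a narrower spread for the same stages. Its 62877 regions had a median change of -0.61 as deposited, with 26 regions (0.0414%) at least 2-fold higher and 14055 (22.4%) at least 2-fold lower. With each column centred on its median these were 734 (1.17%) higher and 2033 (3.23%) lower, against 10.3% and 14.2% for H3K27ac on that scale. The SD of the change across regions was 0.49 for FAIRE and 0.92 for H3K27ac. Its regions held fewer reads, a median of 10 in day 10 neurons and 22 in progenitors, under the same offset of 16 reads. That offset holds regions of few reads near 0, so the spreads and shares of the assays are not on equal terms. Its part in the narrower spread was not tested. The FAIRE and H3K27ac tables list different numbers of regions and give no positions, so no region of one can be matched to one of the other.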

How the data were processed

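H3K27ac ChIP-seq of day 10 neurons, day 1 neurons and progenitors (2 libraries each) was analysed. Groups and replicate numbers came from the sample titles, and nothing there says that libraries came from separate cultures. The authors deposited log2 enrichment per region, both libraries of a stage merged, with the region's width. The submitters' processing notes name the build mm9 and, with no version, Bowtie, TopHat, DESeq and HTSeq. The peak caller, the reference of the enrichment and all parameters are not stated in any source used. For the marker check, the authors deposited a signal of normalised read counts per gene and library.

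The values themselves gave the base of the log. Read as base 2, differences between columns were ratios of whole numbers in 99.5% of 400 sampled regions, against 2.5% for base e and 5.25% for base 10. Reads were then recovered, whole within 0.0001, in 99.99% of regions, and the recovery was tested on simulated data. In the difference of 2 columns the reference cancels. The reads in regions summed to 11.2 to 18.0 M (mega) reads per stage, which is not the sequencing depth. Differences were rounded to 9 decimals so that exact 2-fold ratios count as 2-fold. Intervals cover counting error only.

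Tests per library had been planned for a table with a column per library; with merged values none was run. Quintiles of width and level were taken over all regions, equal values kept together. Named regions were the 5 largest gains and losses overall and in the top level quintile, the 5 widest and those nearest the 2-fold threshold. The highest regions of each stage and the runs were chosen after their values were seen. The comparison, the marker lists and the classes were chosen with earlier results of these data known. Alternatives were other scalings, thresholds, filters, offsets and definitions of level and width. Python 3.11.15, numpy 2.4.6, pandas 2.3.3 and scipy 1.17.1 were used.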

Additional observations from a re-analysis of the deposited data

How the results depend on the processing

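No paired analysis was possible because the deposited columns merge both libraries of a stage, and for the same reason leaving out each library was not run. The median change of H3K27ac, -0.12 as deposited, was -0.089 with columns centred on their medians, -0.025 after quantile normalisation, -0.22 with an offset of 1 read, -0.115 in the top 4 level quintiles, -0.33 in regions of at least 500 bp and -0.52 in those of at least 1000 bp. It turned to 0.21 with columns centred on the top level quintile and to 0.56 when scaled by total reads. Whether depth, the enrichment of the libraries or the mark moved was not tested. Regions past the threshold, 13898 higher and 21304 lower, were 24119 and 12479 with centring on the top quintile, 40787 and 6977 with total reads and 27568 and 40587 with an offset of 1. They were 27842 and 39721 at 1.5-fold, 1999 and 4021 at 4-fold, 6261 and 11546 from 500 bp, and 1633 and 3829 from 1000 bp. The widest minus the narrowest quintile, -0.32, was -0.40 with fixed widths and -0.22 with an offset of 1. The top minus the bottom level quintile, -0.43, was -0.86 by the day 1 value, -1.49 by the progenitor value, -0.29 with an offset of 1 and -0.46 by reads per kb, chosen after seeing the data. It turned to 0.74 by the day 10 value. Of the losses, 43.3% of the change was present by day 1 after centring, against 42.0%. FAIRE after centring had a median of -0.063, with 734 regions higher and 2033 lower. The other alternatives moved these values by less than their set limits. Narrow regions rest on few reads, which limits them.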

Other observations

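A set of 40 regions lay below -2 in both day 10 neurons and progenitors, far under the reference. They held a median of 1769 reference reads, against 12 over all regions, and their median change was -0.82. In 3886 regions the value was below 0 at both ends. Reads could not be recovered for 11 regions.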
